A study of Homo sapiens with 12 samples.

Results

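The 51 genes described here encode proteins that copy DNA in S phase or that drive and carry out mitosis. They were taken from a fixed list of gene symbols, matched through GENCODE 29 to the 58735 genes listed in the deposited tables, and every member was found. The rule uses no measured value, although the list was drawn up with earlier results of these data known. By the phase in which their products are best known to act or to be transcribed, 22 members were placed in a G1/S class and 29 in a G2/M class.

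RNA sequencing was performed on 12 libraries in 4 groups of 3. SK-BR-3 is a long-established line of human breast cancer cells with amplified HER2. SK/EPI is a line derived from it by long selection in rising concentrations of epirubicin, an anthracycline that poisons type II topoisomerase. The other groups were SK/EPI cells transfected with a control siRNA (SK/EPI-siNC) or with a BCRP siRNA (SK/EPI-siBCRP), in both cases with Lipofectamine RNAiMax for 48 h. BCRP is the ATP-binding cassette transporter encoded by ABCG2. All groups therefore share the SK-BR-3 background, and the last 3 of the 4 share the selection history. The resistant state is represented by a single selected line and the silencing by siBCRP against a single control siRNA. Whether epirubicin was in the medium at harvest is not given in the sources used here. Nothing in the labels says that the 3 libraries of a group came from separate cultures beyond their description as triplicates, so the p-values below measure the spread between these libraries.

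The 2 deposited tables hold FPKM (fragments scaled to the exon length of a gene and to sequencing depth), SK-BR-3 with SK/EPI in the first and SK/EPI-siNC with SK/EPI-siBCRP in the second. Between 15830381 and 20545811 reads per library were assigned to genes. Log2 fold changes are differences of mean log2(FPKM + 1), a scale on which changes of weakly expressed genes come out too small. Adjusted p-values are from limma with Benjamini-Hochberg adjustment over all genes tested in a table, and a gene is called higher or lower at an adjusted p under 0.05. ABCG2 followed the labels, with 0.0750, 0.0220 and 0.0520 FPKM in the SK-BR-3 libraries and 33.9, 35.9 and 32.7 in SK/EPI. It measured 32.5, 32.7 and 33.7 FPKM in SK/EPI-siNC and 2.84, 3.47 and 2.91 in SK/EPI-siBCRP. The epithelial markers EPCAM, KRT8, KRT18 and KRT19 averaged at least 74.4 FPKM in every group. ERBB2, which encodes HER2, averaged 659 FPKM in SK-BR-3 and between 96.8 and 133 in the SK/EPI groups. The epithelial cadherin gene CDH1 was near 0 in all libraries. Of the leukocyte, endothelial and fibroblast markers checked, CDH5 reached 27.5 FPKM in SK/EPI, and each of the others stayed under 2 FPKM on average in every group.

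A dividing cell licenses its replication origins in G1, when CDT1 helps to load the MCM2 to MCM7 helicase, and fires them in S phase, when CDC45 and the GINS complex turn that helicase on. Many genes of this step are transcribed through E2F factors once the RB proteins release them. Genes for mitosis peak later, when the MuvB complex with MYBL2 and then FOXM1 binds their promoters, often through an element called CHR. Bulk RNA gives an average over cells, so fewer cells in a phase and less RNA of a gene per cell cannot be told apart in these data.

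The classes differed in the letters of their promoters. RefSeq (GRCh38.p14) gave a promoter of 250 bases before to 50 bases after the start for 42 members, 18 G1/S and 24 G2/M. The CHR element was searched as TTTGAA, an E2F-like site as TTTNNCGC and the CCAAT box as CCAAT, each on both strands. TTTGAA was found in 16 of 24 G2/M promoters and 1 of 18 G1/S promoters, beside 15.4% of all 27305 promoters and 9.71% of the promoters of tested genes. TTTNNCGC was found in 12 of 18 G1/S and 3 of 24 G2/M promoters, beside 6.90% of all promoters and 10.2% of those of tested genes. CCAAT was present in 12 of 18 and 19 of 24, beside 35.7% and 36.3%. A match is a description of these letters and not evidence that a factor binds there. The promoters of RRM1 (chr11:4094435-4094684, plus strand), ECT2 (chr3:172750476-172750725, plus strand) and E2F1 (chr20:33686386-33686635, minus strand) are shown because these genes changed most within a class in a comparison. FOXM1, which also did, is not shown. MCM6 (chr2:135876444-135876693, minus strand), CCNB2 (chr15:59104896-59105145, plus strand) and MKI67 (chr10:128126424-128126673, minus strand) were added, after the matches were seen, as examples of each motif. Each line gives the 250 bases before the start, 5′ to 3′ on the strand of the gene, with matches to any of the 3 motifs in capitals.
RRM1: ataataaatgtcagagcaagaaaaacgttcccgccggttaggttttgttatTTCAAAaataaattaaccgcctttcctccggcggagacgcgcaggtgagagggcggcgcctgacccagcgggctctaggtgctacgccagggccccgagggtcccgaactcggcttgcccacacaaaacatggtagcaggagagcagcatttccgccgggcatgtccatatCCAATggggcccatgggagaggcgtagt
ECT2: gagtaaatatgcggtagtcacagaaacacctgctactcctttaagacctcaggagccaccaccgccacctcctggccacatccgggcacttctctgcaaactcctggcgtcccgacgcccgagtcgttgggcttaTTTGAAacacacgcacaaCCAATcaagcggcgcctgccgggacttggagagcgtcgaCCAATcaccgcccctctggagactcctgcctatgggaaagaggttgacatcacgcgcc
E2F1: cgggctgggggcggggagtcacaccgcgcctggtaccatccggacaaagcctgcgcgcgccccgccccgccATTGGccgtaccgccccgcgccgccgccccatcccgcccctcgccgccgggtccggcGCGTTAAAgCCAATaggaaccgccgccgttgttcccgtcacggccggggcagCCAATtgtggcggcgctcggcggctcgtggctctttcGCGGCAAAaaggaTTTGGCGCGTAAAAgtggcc
MCM6: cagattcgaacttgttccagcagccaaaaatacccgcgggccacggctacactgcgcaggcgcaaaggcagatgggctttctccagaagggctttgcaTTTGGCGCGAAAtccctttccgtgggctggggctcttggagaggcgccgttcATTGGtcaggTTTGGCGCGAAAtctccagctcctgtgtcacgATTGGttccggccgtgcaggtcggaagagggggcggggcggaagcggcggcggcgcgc
CCNB2: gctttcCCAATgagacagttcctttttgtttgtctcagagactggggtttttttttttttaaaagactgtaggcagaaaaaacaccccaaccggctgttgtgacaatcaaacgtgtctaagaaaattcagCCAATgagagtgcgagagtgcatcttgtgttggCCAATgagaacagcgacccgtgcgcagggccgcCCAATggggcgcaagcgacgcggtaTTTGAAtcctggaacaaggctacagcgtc
MKI67: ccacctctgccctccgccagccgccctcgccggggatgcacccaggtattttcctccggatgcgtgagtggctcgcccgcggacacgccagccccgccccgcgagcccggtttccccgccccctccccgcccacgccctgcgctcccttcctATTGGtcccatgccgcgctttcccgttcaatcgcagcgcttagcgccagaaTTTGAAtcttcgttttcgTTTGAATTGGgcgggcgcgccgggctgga
The E2F1 and MCM6 promoters held 4 E2F-like matches each, and in MCM6 these lie in 2 overlapping pairs on opposite strands. CCNB2 held TTTGAA with its first base 29 bases before the start and 4 CCAAT boxes further upstream. MKI67 held TTTGAA at 47 and 29 bases before the start. RRM1 was the G1/S member with a CHR match, on the opposite strand 199 bases before the start.

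All 51 members passed the filter on low values in both comparisons. In SK/EPI against SK-BR-3, 34 members were lower, 12 were higher and 5 were not called. Among all 15823 genes tested, 37.0% were called lower and 37.9% higher, so the members lean toward lower levels relative to that background, where 74.9% of genes were called. The median log2 fold change was -0.32 over the members and 0.01 over all genes tested. It was -0.49 in the G1/S class, with 15 lower and 5 higher, and -0.24 in the G2/M class, with 19 lower and 7 higher. The SK/EPI libraries lay wholly below those of SK-BR-3 in 33 members and wholly above in 12, beside 38.3% and 39.4% of all genes tested. The largest falls were in RRM1, ECT2, TK1, MKI67 and MCM2, and the largest rises in CDT1, CCNB1 and CDK2.

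**Figure D1:**
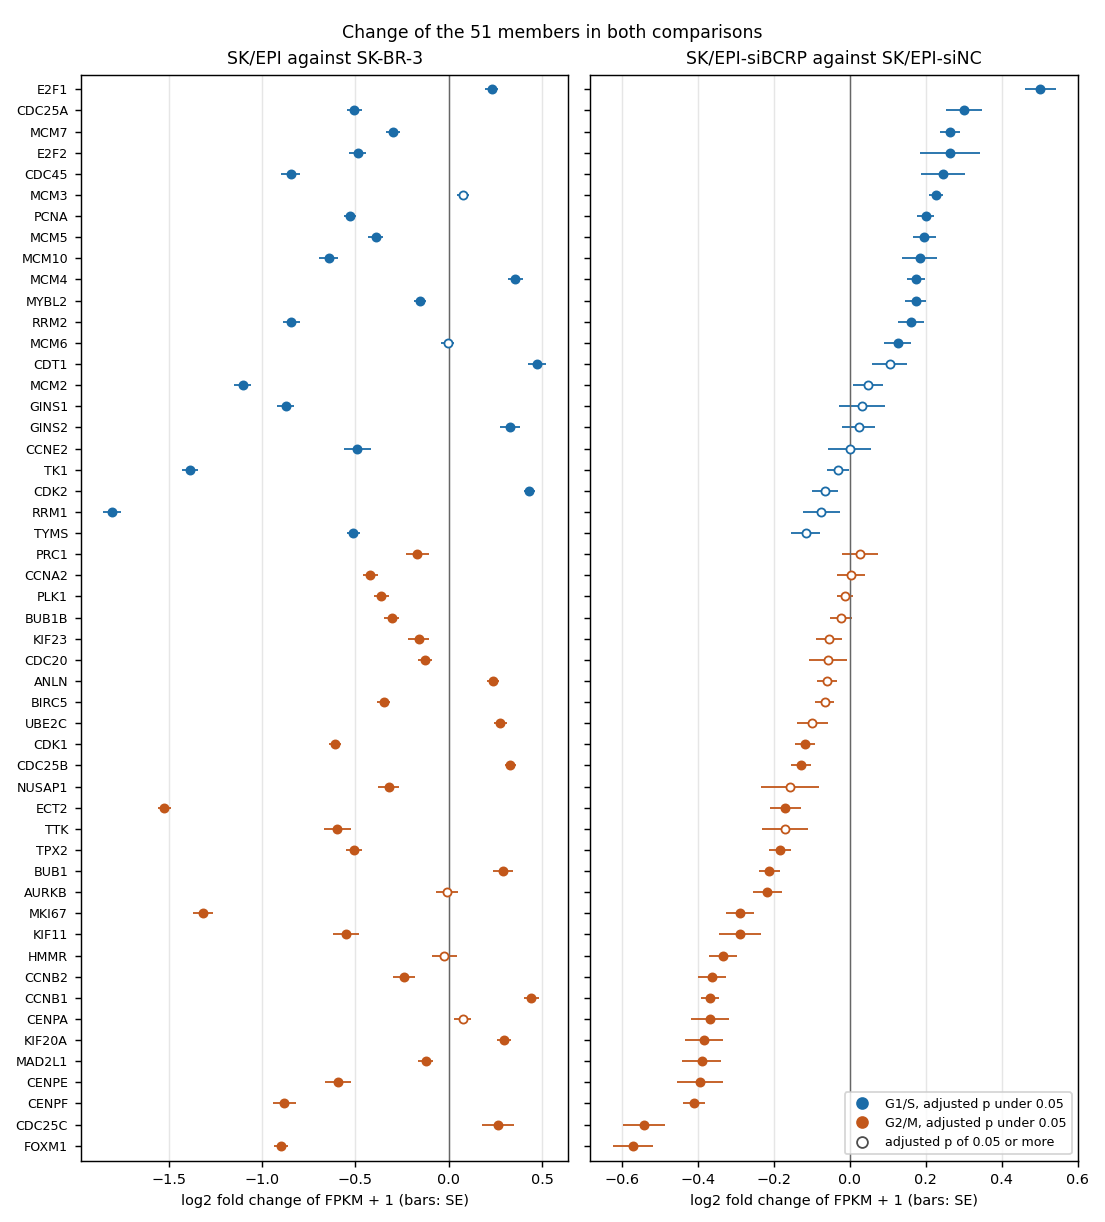
Log2 fold change of FPKM + 1 for each of the 51 members, with SE bars, in SK/EPI against SK-BR-3 (left) and in SK/EPI-siBCRP against SK/EPI-siNC (right, on a narrower axis). Filled points have an adjusted p under 0.05; on the right, 13 of 22 G1/S members (blue) are filled above 0 and 18 of 29 G2/M members (orange) are filled below 0.

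All 5 genes of nucleotide supply and the replication clamp were lower, beside 37.0% of all genes tested. RRM1 fell by more than any other member. RRM1 encodes the large subunit of ribonucleotide reductase (ENSG00000167325, chr11:4094707-4138876 in hg38). Its level was 42.5, 47.1 and 48.0 FPKM in SK-BR-3 and 12.6, 12.5 and 12.1 FPKM in SK/EPI. The groups were far apart, and the level fell by 72.9% (log2 fold change -1.80, SE 0.0494, limma adjusted p = 2.1e-08). TK1, the thymidine kinase of the salvage pathway, measured 340.0, 337 and 322 FPKM in SK-BR-3 against 121, 128 and 131 FPKM in SK/EPI. Every SK/EPI library lay below every SK-BR-3 library, with a log2 fold change of -1.39 (SE 0.0430, limma adjusted p = 4.1e-08). The small reductase subunit RRM2, the replication clamp PCNA and thymidylate synthase (TYMS) fell as well, with log2 fold changes of -0.84, -0.53 and -0.51. Of TYMS exon bases, 39.1% also lie in exons of ENOSF1 on the opposite strand, and the library kit does not mark strand, so reads there cannot be told apart. RRM2 shares 20.2% of its exon bases with the same-strand model AC007240.1.

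The helicase and its loaders were split. Of the 11 members, 6 (54.5%) were lower and 3 (27.3%) higher, beside 37.0% and 37.9% of all genes tested. MCM3 and MCM6 were not called. MCM2 was at 22.4, 21.8 and 22.8 FPKM in SK-BR-3 and 9.98, 9.25 and 10.4 FPKM in SK/EPI, a log2 fold change of -1.10 (SE 0.0458, limma adjusted p = 2.1e-07). GINS1, a subunit of the GINS complex, was at 18.5, 20.4 and 19.9 FPKM against 10.7, 10.3 and 9.84 FPKM, a log2 fold change of -0.87 (SE 0.0471, limma adjusted p = 1e-06). In neither gene did the groups overlap. Of MCM2 exon bases, 22.7% are shared with AC023593.1 on the opposite strand. CDC45, MCM10, MCM5 and MCM7 were lower by 0.85, 0.64, 0.39 and 0.30 on the log2 scale. In contrast, CDT1 rose from 17.2, 15.9 and 16.6 FPKM to 21.9, 24.3 and 24.0 FPKM (log2 fold change 0.47, SE 0.0497, limma adjusted p = 5.3e-05). MCM4 and GINS2 were higher too, with log2 fold changes of 0.36 and 0.33. The subunits of the hexamer MCM2 to MCM7, which act in equal numbers, thus spanned log2 fold changes from -1.10 in MCM2 to 0.36 in MCM4. MCM3 had a log2 fold change of 0.08 (limma adjusted p = 0.0539), although its libraries did not overlap, and MCM6 one of -0.01 (limma adjusted p = 0.886). Scaling to all reads on genes instead of the deposited scaling called MCM3 higher (log2 fold change 0.16, limma adjusted p = 0.00067).

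Among the transcription factors, FOXM1, the activator of G2/M genes (ENSG00000111206, chr12:2857681-2877155), measured 32.0, 31.0 and 33.8 FPKM in SK-BR-3 and 16.6, 16.9 and 17.1 FPKM in SK/EPI. The SK/EPI libraries sat well below, at a log2 fold change of -0.90 (SE 0.0383, limma adjusted p = 2.6e-07). E2F2, an activating E2F, went from 6.82, 6.91 and 7.05 FPKM to 4.52, 4.68 and 4.75 FPKM. This is a log2 fold change of -0.49 without overlap (SE 0.0432, limma adjusted p = 1.9e-05). MYBL2, the MuvB partner, was lower by 0.15 on the log2 scale. E2F1 was the member of this role that rose, from 24.3, 24.5 and 24.2 FPKM to 27.4, 29.1 and 29.6 FPKM (log2 fold change 0.23, SE 0.0362, limma adjusted p = 0.0006). The ratio of E2F1 to FOXM1 FPKM restates the opposite changes of these genes and is no separate evidence. It was 0.754 ± 0.0374 in SK-BR-3 and 1.70 ± 0.0438 in SK/EPI (SD, n = 3 each).

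The cyclins, their kinases and the CDC25 phosphatases that activate them moved in both directions. Of the 9, 5 were lower (55.6%) and 4 higher (44.4%), beside 37.0% and 37.9% of all genes tested. CDK1, the mitotic kinase, was at 54.5, 54.9 and 53.5 FPKM in SK-BR-3 and 34.2, 35.8 and 35.8 FPKM in SK/EPI (log2 fold change -0.61, SE 0.0312, limma adjusted p = 7.4e-07). Its partner cyclin B1 (CCNB1) went the other way, from 44.8, 46.2 and 44.7 FPKM to 58.9, 62.4 and 64.3 FPKM (log2 fold change 0.44, SE 0.0385, limma adjusted p = 1.7e-05). In both genes all libraries of a group lay on their own side. CDC25A, which acts at S-phase entry, fell from 13.3, 13.3 and 13.8 FPKM to 9.06, 9.61 and 8.96 FPKM (log2 fold change -0.51, SE 0.0398, limma adjusted p = 9.4e-06). The G1/S kinase gene CDK2 and the mitotic phosphatase genes CDC25B and CDC25C were higher, with log2 fold changes of 0.43, 0.33 and 0.26. The CDC25C libraries overlapped between groups. Cyclins A2, B2 and E2 (CCNA2, CCNB2, CCNE2) were lower by 0.42, 0.24 and 0.49. CCNE2 averaged only 1.44 FPKM in SK-BR-3 and 0.737 FPKM in SK/EPI, and 37.0% of its exon bases are shared with INTS8 on the opposite strand.

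Genes of mitosis itself were mostly lower. TTK, a kinase of the spindle checkpoint, measured 8.05, 10.1 and 8.78 FPKM in SK-BR-3 and 5.59, 5.56 and 5.54 FPKM in SK/EPI (log2 fold change -0.60, SE 0.0720, limma adjusted p = 0.00012). PLK1, the polo-like kinase of mitotic entry, went from 27.7, 28.1 and 27.1 FPKM to 20.4, 21.4 and 22.1 FPKM (log2 fold change -0.36, SE 0.0379, limma adjusted p = 5.4e-05). In both, the SK/EPI libraries were all below those of SK-BR-3. BIRC5 and BUB1B, a passenger protein and a checkpoint kinase, were lower by 0.35 and 0.30, and the checkpoint genes CDC20 and MAD2L1 by 0.13 and 0.12. The checkpoint kinase BUB1 and the ubiquitin-conjugating enzyme UBE2C were higher, with log2 fold changes of 0.29 and 0.28. AURKB, the kinase of the passenger complex, had overlapping groups at 14.5 FPKM on average in each (limma adjusted p = 0.911).

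At the kinetochore, CENPF fell from 20.1, 21.8 and 23.1 FPKM to 11.99, 11.4 and 10.5 FPKM (log2 fold change -0.88, SE 0.0619, limma adjusted p = 4.8e-06). CENPE, a kinetochore motor, had a log2 fold change of -0.59. The centromeric histone CENPA was not called, with a log2 fold change of 0.08 and overlapping groups (limma adjusted p = 0.163). It was called higher with limma's voom on recovered reads, at a log2 fold change of 0.17 (adjusted p = 0.0185). On the spindle, the motor KIF11 was at 13.7, 12.8 and 13.5 FPKM in SK-BR-3 and 9.64, 8.90 and 7.84 FPKM in SK/EPI (log2 fold change -0.55, SE 0.0678, limma adjusted p = 0.00014). The spindle assembly factor TPX2 measured 44.4, 48.5 and 45.6 FPKM against 33.1, 32.1 and 31.4 FPKM (log2 fold change -0.51, SE 0.0402, limma adjusted p = 9.8e-06). Both were lower in every SK/EPI library. NUSAP1 was lower by 0.32, but 62.2% of its exon bases are shared with an overlapping gene model, AC087721.2, on the same strand. HMMR did not differ beyond its spread (log2 fold change -0.02, limma adjusted p = 0.765).

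ECT2, the exchange factor that starts cytokinesis (ENSG00000114346, chr3:172750682-172821474), measured 67.3, 69.7 and 72.7 FPKM in SK-BR-3. In SK/EPI it was at 23.5, 24.3 and 23.3 FPKM, and the level, the most reduced of the G2/M class, fell by 66.1% (log2 fold change -1.52, SE 0.0370, limma adjusted p = 1.2e-08). KIF20A, a motor of the central spindle, rose from 17.8, 18.4 and 19.4 FPKM to 23.0, 23.2 and 22.6 FPKM (log2 fold change 0.29, SE 0.0378, limma adjusted p = 0.00018). No library of either gene crossed into the other group's range. Anillin (ANLN) was also higher, with a log2 fold change of 0.24, while the motor KIF23 was lower by 0.16. PRC1, a bundler of central spindle microtubules, was called lower by 0.17 with overlapping groups, but its mean was 0.432 FPKM in SK-BR-3 and 0.274 in SK/EPI, and 57.6% of its exon bases are shared with the same-strand model AC068831.7. Its values, and those of NUSAP1, are therefore uncertain. MKI67, which encodes the proliferation antigen Ki-67, went from 34.2, 38.6 and 38.7 FPKM to 14.4, 14.0 and 14.6 FPKM. The 2 groups were clearly separate, and the level fell by 61.5% (log2 fold change -1.32, SE 0.0514, limma adjusted p = 1.5e-07).

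**Figure D2:**
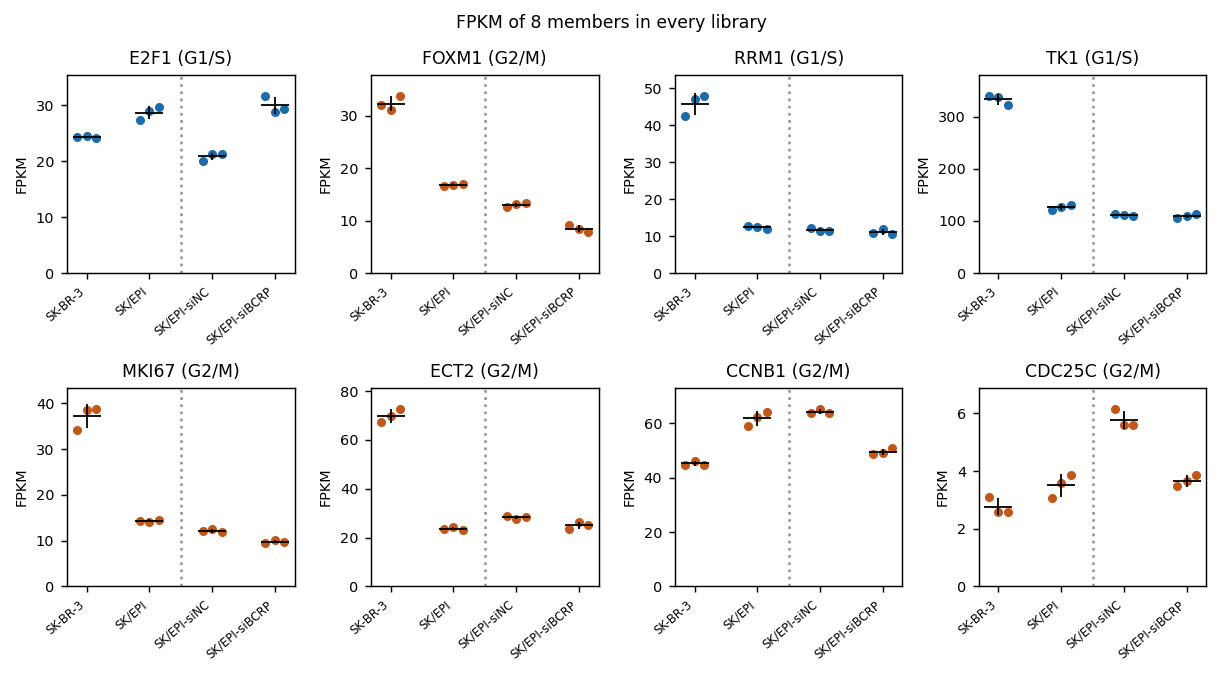
FPKM of 8 members in every library, each panel on its own axis from 0, with the mean (line) and SD (bar) of each group of 3. RRM1, TK1, MKI67 and ECT2 drop from SK-BR-3 to SK/EPI, whereas E2F1 and FOXM1 part between SK/EPI-siNC and SK/EPI-siBCRP. The dotted line separates the 2 tables, which were scaled separately.

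Each member was also set beside the other tested genes that start within 1 Mb of it. In SK/EPI against SK-BR-3, 32 of the 51 members had the same sign as the median of their neighbours. Over the 51 members the log2 fold change of the member and the median of its neighbours had a Pearson r of 0.42 and a Spearman rho of 0.50, given as a description because nearby members share neighbours. ECT2 lay among 5 tested neighbours, all 5 below 0, with a median of -1.62. TK1 and BIRC5, which lie close together on chromosome 17, had 23 tested neighbours each, with medians of -0.53 and -0.73. KIF20A and CDC25C, both higher in SK/EPI, lie close together on chromosome 5. They had 14 and 17 tested neighbours, with medians of 0.22 and 0.14. RRM1 had 13, with a median of -0.21, far from its own -1.80. MKI67 had a single tested neighbour, at 1.00. In SK/EPI-siBCRP against SK/EPI-siNC, r was 0.00 and rho was 0.07. Fewer genes were called in that comparison, 38.1% against 74.9%, so the coefficients are not directly comparable. The part of chromosomal position in these differences was not tested.

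**Figure D3:**
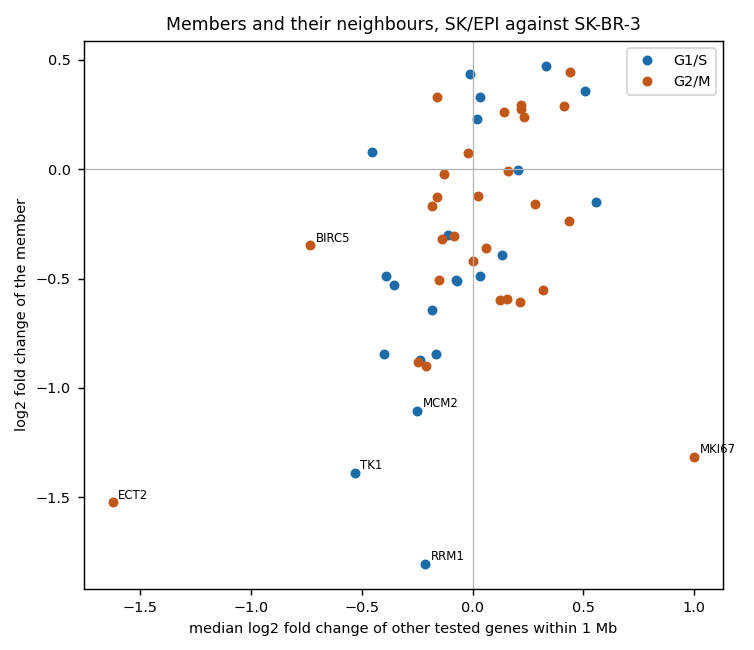
Log2 fold change of each member in SK/EPI against SK-BR-3 (vertical axis) against the median log2 fold change of the other tested genes within 1 Mb (horizontal axis). ECT2 sits at the lower left with neighbours at a median of -1.62, while RRM1 lies near the middle of the horizontal axis at -0.21.

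To extend the description beyond the members, 143 further genes of the same pathways were examined in 7 lists. In SK/EPI, 78 were lower, 34 were higher and 31 were not called. Among all genes tested 37.0% were lower and 37.9% higher. The median log2 fold change of the 143 genes was -0.21. Spindle and motor genes were 12 lower and 1 higher of 19, condensin and sister separation genes 9 and 2 of 11, and kinetochore and passenger genes 21 and 7 of 31. Replication fork genes were nearer that background, with 15 lower (45.5%) and 12 higher (36.4%) of 33. Origin genes were 5 lower and 4 higher of 15, the anaphase-promoting complex 8 and 4 of 17, and the RB, E2F and MuvB regulators 8 and 4 of 17. The largest fall was in TFDP1, the DNA-binding partner of the E2Fs, from 119.9, 116 and 122 FPKM to 33.7, 34.9 and 34.0 FPKM (log2 fold change -1.77, SE 0.0322, limma adjusted p = 3e-09). Its relative TFDP2 rose from 2.58, 2.61 and 2.73 FPKM to 5.94, 6.24 and 6.37 FPKM (log2 fold change 0.98, SE 0.0503, limma adjusted p = 7.4e-07). CDC6, which loads the helicase with CDT1, fell from 80.3, 83.7 and 82.1 FPKM to 25.7, 26.6 and 27.6 FPKM (log2 fold change -1.59, SE 0.0357, limma adjusted p = 8e-09). None of these 3 genes overlapped between groups, and CDC6 and CDT1 moved in opposite directions. ZWINT, a kinetochore protein, ESPL1, the protease separase, and CDC16, a subunit of the anaphase-promoting complex, fell by 65.8%, 65.0% and 57.4%. E2F5, WDHD1, CDC23 and DSN1 rose by 1.26, 0.80, 0.67 and 0.65, E2F5 from a mean of only 0.381 FPKM. TFDP1 and CDC16 lie close together on chromosome 13, and CDC23 lies beside the member KIF20A on chromosome 5.

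With siBCRP set against the siNC control, the classes moved in opposite directions. The siNC control itself differed from untransfected SK/EPI cells, as given further below. In SK/EPI-siBCRP against SK/EPI-siNC, 13 of 22 G1/S members were higher and 0 were lower by limma at an adjusted p under 0.05. Of the 29 G2/M members, 0 were higher and 18 were lower. Over all 16298 genes tested, 19.4% were higher and 18.7% lower, 38.1% in either direction. The median log2 fold change was 0.17 in the G1/S class, -0.18 in the G2/M class and -0.00 over all genes tested. The SK/EPI-siBCRP libraries lay wholly above the controls in 13 members, all G1/S, and wholly below in 21, of which 20 were G2/M, beside 25.5% and 25.4% of all genes tested. The changes were small. Of the members called, E2F1 rose by 0.50 and FOXM1 and CDC25C fell by 0.57 and 0.54, and every other called member changed by less than 0.5 on the log2 scale. TYMS, at a log2 fold change of -0.12 and an adjusted p of 0.051 by limma, became a G1/S member called lower under 5 of the other settings tried.

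**Figure D4:**
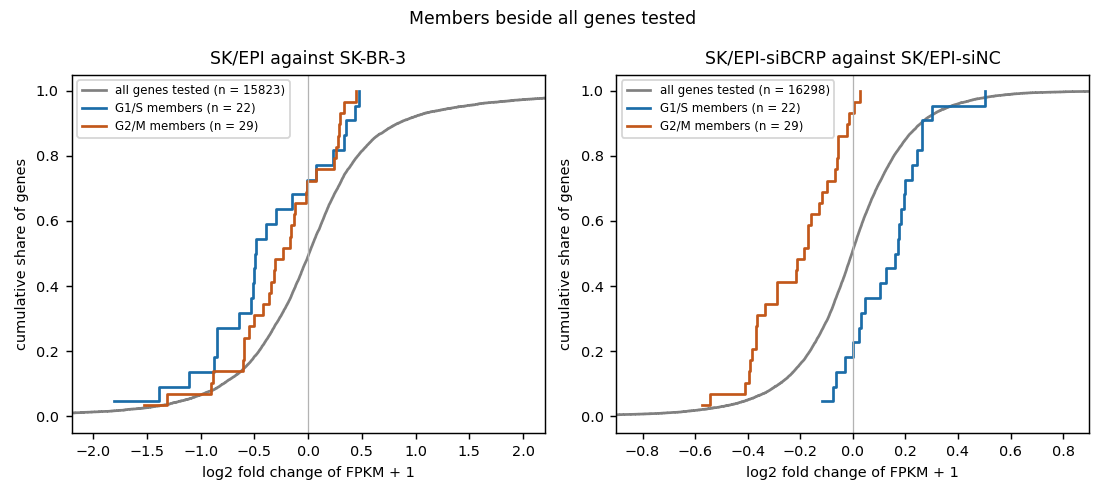
Cumulative share of genes (vertical axis) by log2 fold change of FPKM + 1 (horizontal axis) for the 22 G1/S members, the 29 G2/M members and all genes tested, in SK/EPI against SK-BR-3 (left) and SK/EPI-siBCRP against SK/EPI-siNC (right). On the right the G1/S curve lies to the right of all genes (median 0.17) and the G2/M curve to the left (median -0.18), while on the left both lie to the left.

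The G1/S transcription factors were among the members that rose. E2F1 (ENSG00000101412, chr20:33675683-33686404) was at 20.1, 21.2 and 21.3 FPKM in SK/EPI-siNC and 31.7, 28.9 and 29.4 FPKM in SK/EPI-siBCRP. Its groups were well separated, with a rise of 43.6% (log2 fold change 0.50, SE 0.0408, limma adjusted p = 0.0001). E2F2 and MYBL2 rose by 0.26 and 0.17. FOXM1 was at 12.6, 13.2 and 13.3 FPKM in SK/EPI-siNC and 9.12, 8.42 and 7.82 FPKM in SK/EPI-siBCRP. Each SK/EPI-siBCRP library was below each control, a fall of 35.2% (log2 fold change -0.57, SE 0.0528, limma adjusted p = 0.00019). The ratio of E2F1 to FOXM1 FPKM, which again restates these changes, was 1.60 ± 0.00521 in SK/EPI-siNC and 3.55 ± 0.177 in SK/EPI-siBCRP (SD, n = 3 each). FOXM1 shares 15.9% of its exon bases with ITFG2 on the opposite strand.

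All 11 helicase members had a log2 fold change above 0. Of them, 7 (63.6%) were called higher, beside 19.4% of all genes tested. MCM7 went from 72.3, 75.6 and 71.3 FPKM to 88.4, 86.8 and 88.5 FPKM (log2 fold change 0.26, SE 0.0262, limma adjusted p = 0.00026). CDC45 went from 8.76, 8.34 and 7.72 FPKM to 9.33, 10.1 and 10.6 FPKM (log2 fold change 0.25, SE 0.0577, limma adjusted p = 0.0135). In both, the SK/EPI-siBCRP libraries were all above the controls. MCM3, MCM5, MCM10, MCM4 and MCM6 rose by 0.23, 0.20, 0.18, 0.17 and 0.13. The remaining helicase members CDT1, MCM2, GINS1 and GINS2 had log2 fold changes of 0.10, 0.05, 0.03 and 0.02 with overlapping groups (limma adjusted p between 0.112 and 0.717). MCM2 and GINS1, among the largest falls of this role in the resistant line, were therefore not called here.

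PCNA rose from 91.2, 92.0 and 93.4 FPKM to 104, 106 and 108 FPKM (log2 fold change 0.20, SE 0.0223, limma adjusted p = 0.00046). RRM2 rose from 6.70, 6.99 and 6.81 FPKM to 7.59, 7.89 and 7.80 FPKM (log2 fold change 0.16, SE 0.0346, limma adjusted p = 0.00928). Neither gene overlapped between groups. RRM1 and TK1, the nucleotide genes that fell most in the resistant line, had log2 fold changes of -0.08 and -0.03 with overlapping groups (limma adjusted p = 0.274 and 0.445). CDC25A rose by 0.30 (limma adjusted p = 0.0023). CDK2 and CCNE2 were not called, at -0.06 and -0.00 (limma adjusted p = 0.174 and 0.992).

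Of the G2/M cyclins, kinases and phosphatases, 5 of 6 fell, beside 18.7% of all genes tested. CCNB1 went from 63.6, 65.2 and 63.8 FPKM to 48.7, 49.1 and 50.8 FPKM (log2 fold change -0.37, SE 0.0238, limma adjusted p = 3.8e-05). CDC25C went from 6.15, 5.60 and 5.60 FPKM to 3.46, 3.65 and 3.86 FPKM (log2 fold change -0.54, SE 0.0544, limma adjusted p = 0.00027). Both were lower in every SK/EPI-siBCRP library, and both had been higher in SK/EPI than in SK-BR-3. CCNB2, CDC25B and CDK1 fell by 0.36, 0.13 and 0.12. CCNA2, the cyclin of S phase and early mitosis, was at 29.1 FPKM in SK/EPI-siNC and 29.2 FPKM in SK/EPI-siBCRP on average and was not called (limma adjusted p = 0.965).

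Of the 9 checkpoint and kinase genes, 3 (33.3%) were called, all lower. This is under the 38.1% of all genes called in either direction. MAD2L1, a checkpoint protein at unattached kinetochores, went from 12.8, 12.2 and 13.8 FPKM to 9.23, 10.2 and 9.49 FPKM (log2 fold change -0.39, SE 0.0510, limma adjusted p = 0.00098). AURKB went from 16.1, 16.8 and 15.6 FPKM to 13.4, 13.6 and 14.3 FPKM (log2 fold change -0.22, SE 0.0375, limma adjusted p = 0.0036). BUB1 fell by 0.21, and none of these 3 genes overlapped between groups. PLK1, BUB1B, CDC20, BIRC5, UBE2C and TTK were not called, with log2 fold changes of -0.01, -0.02, -0.06, -0.07, -0.10 and -0.17. Their limma adjusted p-values lay between 0.0654 for TTK and 0.672 for PLK1. Without SK/EPI-siNC replicate 3, CDC20 and UBE2C were called lower (-0.12 and -0.13, limma adjusted p = 0.019 and 0.0439), and without SK/EPI-siNC replicate 2, TTK was (-0.23, limma adjusted p = 0.0264).

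All 3 kinetochore members fell, beside 18.7% of all genes tested. CENPF went from 13.1, 13.0 and 13.3 FPKM to 9.64, 9.77 and 9.45 FPKM, with no overlap (log2 fold change -0.41, SE 0.0281, limma adjusted p = 4.7e-05). CENPE and CENPA fell by 0.39 and 0.37. HMMR, a microtubule-binding protein of the spindle, went from 9.32, 8.85 and 9.15 FPKM to 6.96, 7.24 and 6.85 FPKM (log2 fold change -0.33, SE 0.0365, limma adjusted p = 0.00041). KIF11 went from 8.41, 8.79 and 8.25 FPKM to 6.29, 6.66 and 7.34 FPKM (log2 fold change -0.29, SE 0.0551, limma adjusted p = 0.00544). Neither HMMR nor KIF11 overlapped between groups, and TPX2 fell by 0.18. NUSAP1 had a log2 fold change of -0.16 with overlapping groups (limma adjusted p = 0.148), and was called at -0.24 without SK/EPI-siNC replicate 3 (limma adjusted p = 0.0204).

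At the central spindle, KIF20A went from 25.7, 25.6 and 27.8 FPKM to 18.9, 21.3 and 19.7 FPKM (log2 fold change -0.38, SE 0.05, limma adjusted p = 0.00098). ECT2 went from 28.9, 27.7 and 28.3 FPKM to 23.6, 26.4 and 25.2 FPKM (log2 fold change -0.17, SE 0.0408, limma adjusted p = 0.0146). The ranges of ECT2 came close without meeting, and without SK/EPI-siNC replicate 1 it was no longer called (-0.16, limma adjusted p = 0.0507). ANLN, KIF23 and PRC1 were not called, with log2 fold changes of -0.06, -0.05 and 0.03 (limma adjusted p between 0.107 and 0.707). MKI67 went from 11.99, 12.6 and 11.8 FPKM to 9.495, 10.1 and 9.64 FPKM, with every SK/EPI-siBCRP library below every control. Its fall of 19.7% (log2 fold change -0.29, SE 0.0366, limma adjusted p = 0.00085) was in the direction of its difference between SK/EPI and SK-BR-3.

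**Figure D5:**
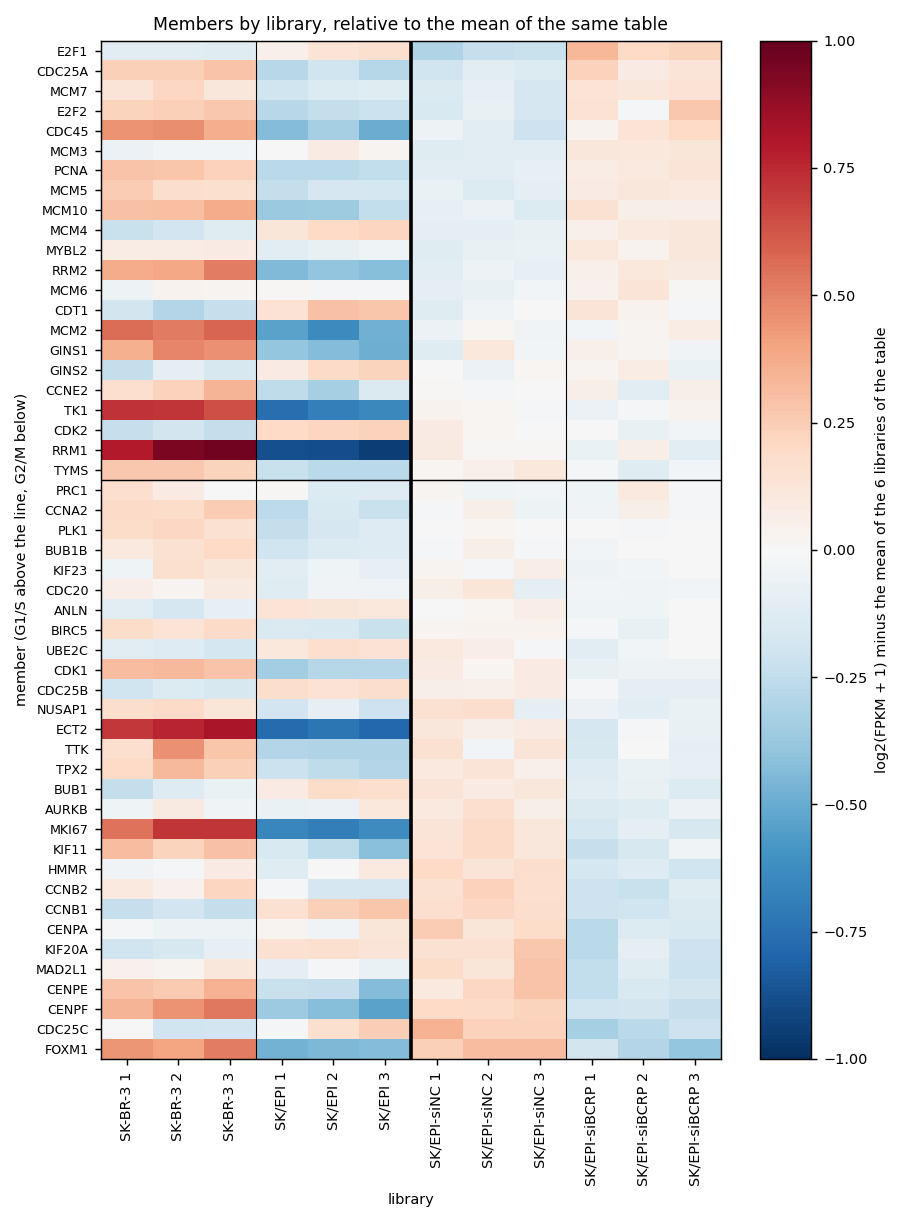
Each row is a member and each column a library, and colour gives log2(FPKM + 1) minus the mean of the 6 libraries of the same table, from -1 (blue) to 1 (red). G1/S members lie above the horizontal line and G2/M members below it. Replicates of a group resemble each other, and in the right-hand table the called members of the classes take opposite colours. There, 5 G1/S members had a log2 fold change below 0 and 2 G2/M members had one above 0. Most changes in that table are small on this scale.

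The comparisons have no library in common. Set side by side, 9 G1/S members that were lower in SK/EPI than in SK-BR-3 were higher with siBCRP than with siNC, namely CDC25A, CDC45, E2F2, MCM5, MCM7, MCM10, MYBL2, PCNA and RRM2. The other 6 G1/S members that were lower in SK/EPI (CCNE2, GINS1, MCM2, RRM1, TK1 and TYMS) were not called with siBCRP. The 9 are 40.9% of the G1/S class, beside 8.51% of the 15152 genes tested in both comparisons. E2F1 and MCM4 were higher in both, as were 8.07% of all these genes. In the G2/M class, BUB1, CCNB1, CDC25B, CDC25C and KIF20A were higher in SK/EPI and lower with siBCRP, 17.2% of the class beside 8.51% of all genes. Lower in both were CCNB2, CDK1, CENPE, CENPF, ECT2, FOXM1, KIF11, MAD2L1, MKI67 and TPX2, which are 34.5% of the class beside 7.19% of all genes. In the G1/S class 68.2% were lower in SK/EPI and 59.1% higher with siBCRP. In the G2/M class 65.5% were lower and 24.1% higher in SK/EPI, and 62.1% lower with siBCRP. Joint shares like those above would arise from these shares without a link between the comparisons gene by gene, and such a link was not tested.

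Averaged over the class in each library, log2(FPKM + 1) of the G1/S members was 4.77 ± 0.0156 in SK-BR-3 and 4.37 ± 0.0220 in SK/EPI (SD, n = 3 each). For the G2/M members it was 4.34 ± 0.0208 and 4.06 ± 0.0108. In the second table the G1/S mean was 4.08 ± 0.0113 in SK/EPI-siNC and 4.21 ± 0.0129 in SK/EPI-siBCRP, and the G2/M mean 4.14 ± 0.00624 and 3.92 ± 0.0235. Within each table the groups were separated by many times the SD, in opposite directions for the classes in the second. The difference of the G1/S from the G2/M mean was 0.44 and 0.30 in the first table and -0.07 and 0.29 in the second, in the same order of groups. The difference in SK/EPI-siBCRP thus lay near that of untransfected SK/EPI cells, and SK/EPI-siNC was the group that stood apart from both. Values of the 2 tables stand side by side here, because the tables were scaled separately and the untransfected and siNC-transfected SK/EPI cells were not compared by a test.

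For many members, FPKM in the siNC control differed from FPKM in untransfected SK/EPI cells. The mean FPKM in SK/EPI-siNC was below that in SK/EPI for 21 of 22 G1/S members, at a median ratio of 0.829, and above it for 17 of 29 G2/M members, at a median ratio of 1.06. The same ratio was not computed over all genes. With separate scaling of the tables, a ratio as near 1 as 1.06 is not read as a shift of the G2/M class. MCM4 averaged 71.9 FPKM in SK/EPI, 31.0 in SK/EPI-siNC and 35.1 in SK/EPI-siBCRP, so its rise with siBCRP left it far below the untransfected cells. CDC25C averaged 3.51, 5.78 and 3.66 FPKM in the same order, and CENPE 3.06, 4.92 and 3.50 FPKM. For these 2 genes the fall with siBCRP ended near the untransfected level. So it did for HMMR (6.61, 9.10 and 7.01 FPKM), TPX2 (32.2, 38.4 and 33.6 FPKM) and ECT2 (23.7, 28.3 and 25.1 FPKM). In contrast, FOXM1 (16.8, 13.0 and 8.45 FPKM) and MKI67 (14.3, 12.1 and 9.74 FPKM) ended well below the untransfected level. Members of each kind were not counted. Of the 9 G1/S members that were lower in SK/EPI and higher with siBCRP, E2F2, MCM10, MYBL2, PCNA and RRM2 stayed below their SK/EPI mean in SK/EPI-siBCRP. This holds for FPKM as deposited, and a difference in scaling could reorder members that lie near that mean. Median-of-ratios size factors over all 12 libraries give a measure of the scaling. The deposited divisor over this factor was 19479780 to 19572549 in SK/EPI, 18527888 to 18575964 in SK/EPI-siNC and 18578121 to 18637679 in SK/EPI-siBCRP. The scaling thus makes FPKM of the second table somewhat high beside those of SK/EPI. The parts of transfection and culture in these differences cannot be told apart.

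Of the 143 further genes, 36 (25.2%) were lower with siBCRP, 21 (14.7%) were higher and 86 were not called, beside 18.7% and 19.4% of all genes tested. Their median log2 fold change was -0.01. Of 19 spindle and motor genes, 11 were lower and 0 were higher by limma at the same threshold. Condensin and sister separation genes were 6 lower and 1 higher of 11, and kinetochore and passenger genes 11 and 3 of 31. Origin genes were 1 lower and 3 higher (20.0%) of 15, and fork genes 3 and 5 (15.2%) of 33, with medians of 0.06 and 0.04. These 2 replication lists were thus near or under the share of all genes called higher, unlike the G1/S members. The anaphase-promoting complex had 2 lower and 3 higher of 17, and the RB, E2F and MuvB regulators 2 and 6 of 17. ANAPC13, a small subunit of the anaphase-promoting complex, fell from 13.6, 13.4 and 14.4 FPKM to 5.51, 5.22 and 5.13 FPKM (log2 fold change -1.23, SE 0.0418, limma adjusted p = 3.3e-06). The kinetochore gene CENPU fell by 0.62, the securin gene PTTG1 by 0.47, the polymerase subunit POLD4 by 0.43 and the motor KIF18A by 0.42. CENPK rose from 4.12, 4.18 and 4.06 FPKM to 6.71, 6.91 and 6.43 FPKM (log2 fold change 0.58, SE 0.0414, limma adjusted p = 5.5e-05). GMNN, the inhibitor of CDT1, rose by 0.46, POLE4 by 0.42, and E2F6 and CDC26 by 0.41 each. In all 10 of these genes the groups were apart.

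An siRNA can lower transcripts other than its target when bases 2 to 8 of its antisense strand, the seed, pair with them, as a microRNA does. The study names siBCRP #1 in the title of its sequencing results for the transfected cells. The antisense strand of this siRNA is shown 5′ to 3′ with bases 2 to 8 in capitals.
siBCRP #1 antisense: aUAACCAGcugauucaaaguauccc
The whole strand matched ABCG2 and no other gene in GENCODE 29, at bases 1368 to 1392 of the 4479 bases of ENST00000237612, in the coding part. The seed pairs with CTGGTTA. Of all genes tested, 1224 held this site after the coding part of their longest coding transcript, and 42.5% of them were lower with siBCRP and 11.5% higher, with a median log2 fold change of -0.09. Among the 15074 without it, 16.8% were lower and 20.0% higher, with a median of 0.00. Genes called lower also had longer transcripts, with a median of 3503 bases against 2845 for genes called higher and 2797 for those not called. Longer transcripts hold any short site more often, and no other site of this length was counted. Of the members, 4 held such a site, 7.84% beside 7.51% of all genes tested. FOXM1, CENPA and MKI67 fell and CDC25A rose. The 3 that fell are 16.7% of the 18 members called lower, beside 17.0% of all genes called lower. The members thus held the site about as often as other genes. The sites of the members that fell are shown with 18 bases before them, the site in capitals (hg38, FOXM1 at chr12:2857990-2857996, CENPA at chr2:26794395-26794401, MKI67 at chr10:128096722-128096728).
FOXM1: ttcctgcaagaagaaatcCTGGTTA
CENPA: cctgtaagctttgatgttCTGGTTA
MKI67: gagggccgactgcatttcCTGGTTA
Without the 4 members, a choice made after the data were seen, 12 of 21 G1/S members were higher and 15 of 26 G2/M members lower, with medians of 0.16 and -0.17. Of the further genes, 13 held the site after their coding part. Of these, ANAPC13, CENPU, BUB3, E2F3, MYBL1 and CDC6 fell, and CENPP, CHAF1B, DEPDC1, GINS3, GINS4, LIN9 and PRIM2 were not called. Leaving out the genes with a site does not remove any effect that passes through them to other genes. FOXM1, an activator of G2/M genes, is among those left out. Pairing of this seed and loss of ABCG2 cannot be told apart for these genes or for the classes with a single siRNA in the tables.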

How the data were processed

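Polyadenylated RNA of 12 libraries was sequenced after a preparation that does not mark strand. For the authors' processing, the notes in the labels name HISAT2 2.0.5, featureCounts 1.5.0-p3, DESeq2 1.16.1 and hg38. The authors deposited 2 tables of FPKM, 1 for SK-BR-3 and SK/EPI and 1 for SK/EPI-siNC and SK/EPI-siBCRP. The tables do not state their unit, which was read from the values. FPKM times the merged exon length in GENCODE 29 gave whole reads for 100.0% of values (tolerance 0.02). The divisor behind the deposited FPKM followed median-of-ratios size factors within a table rather than the reads on genes, so levels of the 2 tables were not tested against each other.

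A gene was kept if 3 or more libraries held 10 or more of its reads, scaled to the median library, and all libraries of the table together held 15 or more. Each table was fitted alone with limma 3.58.1 (R 4.3.3; trend) on log2(FPKM + 1), with Benjamini-Hochberg adjustment over all genes tested. The script was checked on simulated counts. Alternatives were a pseudocount of 0.1, other filters and scalings, TPM, a fold threshold, limma's voom on the recovered reads, a replicate block and leaving out each library. Deviations from the group mean were correlated between same-numbered libraries of the groups. The coefficients were -0.036, 0.011 and -0.070 in the first table and 0.039, 0.102 and 0.036 in the second. Replicate numbers were therefore not taken to pair the libraries.

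The members, the classes and the 7 lists of 143 further genes were chosen with earlier results of these data known, and no pattern here is independent support for them. Values in every library were given for the called members with the largest change in each role (2 per role and comparison, 1 in roles of up to 3 members). Members not called were named with their values. Of the further genes, the 5 largest rises and 5 largest falls without overlap were named in each comparison. Other per-library values were added after they were seen. RefSeq promoters (GRCh38.p14) were matched by symbol. Seed sites were searched in the longest protein-coding GENCODE 29 transcript of each gene.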

Additional observations from a re-analysis of the deposited data

How the results depend on the processing

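In SK/EPI against SK-BR-3, requiring log2 fold changes of 0.5 or more in size left 0 members higher and 19 lower (9 of them G2/M), and 11 further genes higher and 39 lower. The same threshold with a pseudocount of 0.1 left 0 and 22 members (10 of the lower in G2/M) and 12 and 45 further genes, and neither class kept a member called higher (0 in both). In SK/EPI-siBCRP against SK/EPI-siNC the threshold left 1 member higher (G1/S) and 2 lower (G2/M) with either pseudocount, and 1 further gene higher and 2 lower, or 2 and 4 with a pseudocount of 0.1. Most members therefore changed by less than this fold, and the counts rest on small changes. In this comparison 1 G1/S member, TYMS, was called lower with a pseudocount of 0.1, at least 10 reads in every library, scaling to reads on genes, TPM or voom.

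When single libraries were left out, the members called ranged from 11 to 13 higher and 31 to 33 lower in SK/EPI against SK-BR-3, and from 10 to 12 higher and 17 to 21 lower with siBCRP, with no G1/S member called lower and no G2/M member called higher in the latter. The replicate block gave 11 members higher and 34 lower in the first comparison and 11 and 18 in the second, and moved no count of calls by over 1.5 times. The median log2 fold change of all genes moved to 0.10 with voom and 0.06 with scaling to reads on genes in SK/EPI against SK-BR-3, and the share called higher among all calls from 50.6% to 56.1% and 56.0%. In the second comparison TPM moved that share from 50.9% to 43.1%. The medians of the classes kept their sign under every setting tried, between -0.54 and -0.42 (G1/S) and -0.33 and -0.16 (G2/M) in the first comparison and between 0.14 and 0.18 and -0.22 and -0.17 in the second. Genes with few reads, among them PRC1 with 20 to 45 reads per library and CCNE2 with 32 to 134, limit what could be detected there.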
